A study of Mus musculus with 10 samples.

Results

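The Iroquois genes of the mouse, Irx1 to Irx6, were described across 3 pieces of the heart, namely right ventricle (RV), left ventricle (LV) and ventricular septum. Members were chosen by name, as every array probe whose RefSeq accession maps to 1 of these 6 symbols. The choice was made after the low level of Irx1 and Irx2 in the RV had been seen in these same arrays, so every value of those genes, and every RV against septum value of an Irx gene, is given here as a description without a p-value. Of 56605 probes, 32989 carried a gene symbol, for 22907 genes, and 6 of them were Irx probes, 1 for each gene. The probes of Irx1 to Irx5 were among the 30234 that passed the filter on dim probes, and the Irx6 probe was not.

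The study compared pieces of the C57BL/6N mouse heart, taken from different individuals for each experiment, in a search for transcripts that mark the RV. There were 10 single-colour Agilent arrays, 4 of RV (replicates 1 to 4), 3 of LV and 3 of septum (replicates 1 to 3 each), and no treatment, operation or altered allele is given for any of them. The labels give no age for the mice, and each sample was bulk RNA of a perfused, frozen and powdered piece. In such RNA, fewer cells of a type and less RNA per cell cannot be told apart. Levels are log2 of the processed intensity relative to the array's own 75th percentile, which is 0 on this scale, and 1 unit is a doubling. Errors are SD over arrays unless named otherwise.

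Iroquois proteins are homeodomain transcription factors of the TALE class. Their genes lie in a pair of clusters, IrxA with Irx1, Irx2 and Irx4 and IrxB with Irx3, Irx5 and Irx6, and each cluster also holds long non-coding RNA genes. In the heart, Irx4 is known as a marker of ventricular muscle, Irx3 as a factor of the fast conduction system, Irx5 as a repressor of the potassium channel gene Kcnd2 in the ventricular wall, and Irx1 and Irx2 as genes of the septum in the embryo.

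Of the Irx genes, a promoter sequence was at hand for Irx2, Irx3 and Irx4 only. The sequence just before the start of a gene is shown for Irx2 and Irx4, the IrxA genes that differed most and least between regions. That of Crnde, the non-coding neighbour of Irx5 described further on, is shown as well. These are the 250 bases upstream of each RefSeq start, 5′ to 3′ on the gene's own strand (GRCm38.p6), and capitals mark matches to the searched motifs.
Irx2, chr13:72628570-72628819 (+ strand): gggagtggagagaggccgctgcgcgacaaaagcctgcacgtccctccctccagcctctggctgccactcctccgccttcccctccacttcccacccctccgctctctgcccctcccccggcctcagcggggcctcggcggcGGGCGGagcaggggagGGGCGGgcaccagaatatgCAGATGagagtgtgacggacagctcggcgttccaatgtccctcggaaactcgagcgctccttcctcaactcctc
Irx4, chr13:73260247-73260496 (+ strand): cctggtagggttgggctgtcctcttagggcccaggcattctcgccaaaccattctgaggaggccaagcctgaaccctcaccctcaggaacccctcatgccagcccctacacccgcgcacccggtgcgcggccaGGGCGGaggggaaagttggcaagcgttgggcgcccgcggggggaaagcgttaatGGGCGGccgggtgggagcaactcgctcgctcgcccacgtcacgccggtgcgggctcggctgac
Crnde, chr8:92356121-92356370 (- strand): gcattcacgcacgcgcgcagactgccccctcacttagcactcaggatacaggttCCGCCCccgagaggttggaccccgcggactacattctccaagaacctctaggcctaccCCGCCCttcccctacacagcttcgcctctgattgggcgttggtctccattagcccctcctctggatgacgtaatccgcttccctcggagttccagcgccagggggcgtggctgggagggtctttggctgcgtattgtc
Over these bases and the first 50 of the transcript, on both strands, Irx2 and Irx4 each held 2 matches to GGGCGG and 1 to the E-box CANNTG, and Crnde held 3 matches to GGGCGG. The motif GGGCGG occurred in 35.7% and CANNTG in 72.3% of 32851 mouse promoters of the same length. None of the 3 held the palindrome ACANNTGT, which Iroquois proteins are known to bind and which was found in 7.38% of promoters, nor GGTGTG (19.0%) nor TATAAA (13.6%). The promoters of Irx2 and Irx4 were similar in these counts and in GC content, at 68.4% and 68.8% against a median of 52.4%, although the levels of these genes followed different patterns across the heart. The promoter of Irx3, not shown, held no match to any of these motifs and had a GC content of 56.0%.

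Irx1 had a separate level in each region. In the RV it was −1.02, −0.73, −1.06 and −0.75 on replicates 1 to 4. In the LV it was 0.57, 0.51 and 0.10, and in the septum 1.39, 1.87 and 2.25. The order was septum, LV, RV, and the arrays of no pair of regions overlapped. The means were −0.89 ± 0.18 in the RV (n = 4), 0.39 ± 0.25 in the LV (n = 3) and 1.84 ± 0.43 in the septum (n = 3). Irx1 was thus 6.61-fold lower in the RV than in the septum (log2 difference −2.73, SE 0.20, 95% interval −3.18 to −2.27), a difference with the 5th rank from below among all 30234 probes. It was 2.43-fold lower in the RV than in the LV (−1.28, SE 0.20, interval −1.73 to −0.83) and 2.72-fold higher in the septum than in the LV (1.44, SE 0.21, interval 0.96 to 1.92). Irx1 and Irx2 were chosen after their low RV level was seen, so their ranks and intervals describe these arrays and test nothing.

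Irx2, which lies beside Irx1 in the IrxA cluster, had the highest level in the septum as well. Its septum arrays read −0.36, −0.22 and 0.16. The LV arrays read −1.87, −1.84 and −2.83, and the RV arrays −2.93, −3.0, −3.76 and −2.50. Every septum array lay above every array of the other regions, whereas LV replicate 3 fell among the RV arrays, so the order of LV and RV was not clear of their spread. The means were −3.05 ± 0.52 in the RV (n = 4), −2.18 ± 0.57 in the LV (n = 3) and −0.14 ± 0.27 in the septum (n = 3). The RV was 7.49-fold below the septum (−2.90, SE 0.32, interval −3.62 to −2.19), the 4th rank from below. The septum was 4.11-fold above the LV (2.04, SE 0.34, interval 1.27 to 2.81), and the RV was 1.82-fold below the LV (−0.86, SE 0.32, interval −1.58 to −0.14). Without LV replicate 3 the last difference was −1.19, and without RV replicate 3 it was −0.63.

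**Figure D1:**
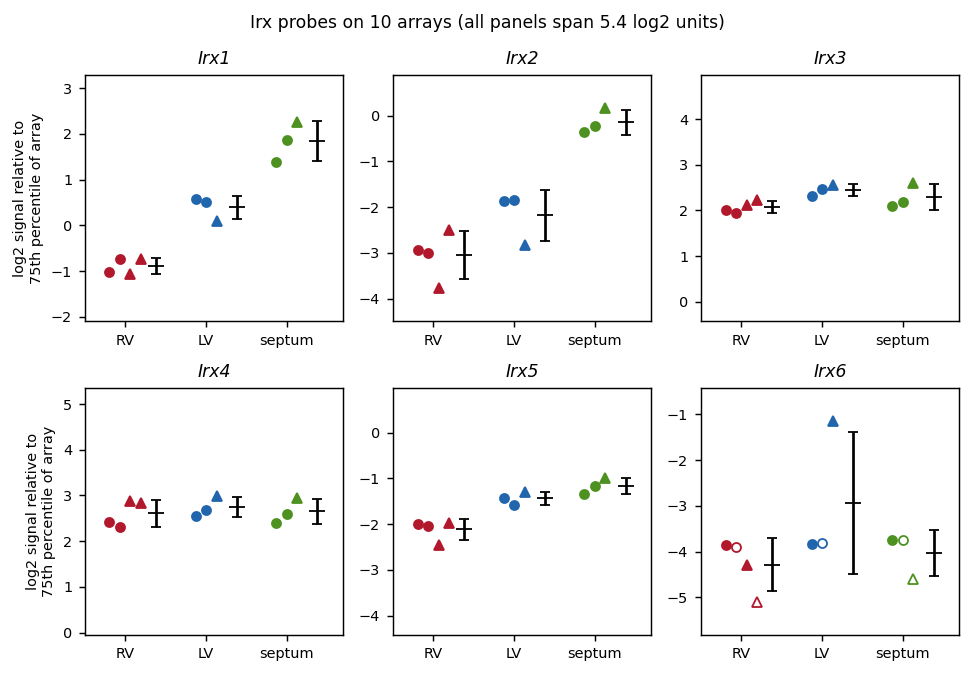
Levels of the 6 Irx probes by region, as log2 signal relative to the 75th percentile of each array (vertical axis). Each point is 1 array (circles slide 1, triangles slide 2, open symbols not well above background), and the bars are mean ± SD. All septum arrays of Irx1 and Irx2 lie above all RV arrays, and the septum and RV ranges of Irx4 overlap.

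The septum-high pattern was of different size on the slides. Replicates 1 and 2 of each region shared a slide, and replicate 3 of each region lay with RV replicate 4 on another, which therefore had 1 LV and 1 septum array. Irx1 was higher in the septum than in the LV by 1.09 on the first slide and by 2.15 on the second, and Irx2 by 1.56 and 3.0. The RV against septum difference of Irx1 was −2.50 on the first slide and −3.16 on the second, and that of Irx2 was −2.67 and −3.29. The direction was the same on both slides. For RV against LV, Irx1 was −1.41 and −1.01 and Irx2 was −1.11 and −0.29. With a background correction by normexp, the RV against septum difference of Irx2 was −1.99 and its septum against LV difference 1.53.

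Irx4, the third IrxA gene and the ventricular marker of the family, was at nearly the same level in the 3 regions. It read 2.41, 2.31, 2.89 and 2.83 in the RV, 2.56, 2.69 and 3.0 in the LV, and 2.41, 2.60 and 2.95 in the septum. All 3 ranges overlapped. The means were 2.61 ± 0.29 (n = 4), 2.75 ± 0.23 (n = 3) and 2.65 ± 0.27 (n = 3). The RV differed from the LV by −0.14 (SE 0.19, interval −0.56 to 0.28, limma, adjusted p = 0.740) and the septum from the LV by −0.10 (interval −0.55 to 0.35, limma, adjusted p = 1). The RV differed from the septum by −0.04 (interval −0.46 to 0.38). The intervals reached from −0.56 to 0.38. The sign of both septum differences turned when single arrays were left out, RV against septum to 0.02 without RV replicate 1, 0.06 without RV replicate 2 and 0.11 without septum replicate 3, and septum against LV to 0.03 without septum replicate 1 or without LV replicate 3.

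Of the IrxB genes, Irx5 was lowest in the RV. Its RV arrays read −2.01, −2.05, −2.45 and −1.97, its LV arrays −1.44, −1.58 and −1.29, and its septum arrays −1.34, −1.17 and −0.99. All RV arrays lay below all others, while LV and septum overlapped. The means were −2.12 ± 0.23 in the RV (n = 4), −1.44 ± 0.14 in the LV (n = 3) and −1.17 ± 0.18 in the septum (n = 3). Irx5 was 1.61-fold lower in the RV than in the LV (−0.68, SE 0.14, interval −0.99 to −0.37, limma with Benjamini-Hochberg adjustment over all probes, adjusted p = 0.0300). It was 1.94-fold lower in the RV than in the septum (−0.95, SE 0.14, interval −1.26 to −0.64). The septum exceeded the LV by 0.27 (interval −0.06 to 0.60, limma, adjusted p = 1). The call against the LV was narrow. It did not pass in 7 of the 10 fits made with 1 array removed (RV replicates 1, 2 or 4, any LV replicate or septum replicate 2, adjusted p up to 0.101), with differences between −0.75 and −0.61.

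Irx3, the other IrxB gene that was measured, differed less. It read 2.01, 1.94, 2.11 and 2.23 in the RV, 2.31, 2.47 and 2.56 in the LV, and 2.09, 2.18 and 2.61 in the septum. The RV and LV arrays did not overlap, and the septum spanned both. The means were 2.07 ± 0.13 (n = 4), 2.44 ± 0.13 (n = 3) and 2.29 ± 0.28 (n = 3). RV against LV was −0.37 (SE 0.13, interval −0.68 to −0.07) and did not pass the test (limma, adjusted p = 0.164). With replicate number as a block it was −0.43 and passed (limma, adjusted p = 0.0333), and with slide as a block it was −0.42 (limma, adjusted p = 0.0118). RV against septum was −0.22 (SE 0.13) and septum against LV −0.15 (SE 0.14, limma, adjusted p = 1).

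Irx6 was at the limit of detection. Its probe was well above background on RV replicates 1 and 3, LV replicates 1 and 3 and septum replicate 1, which is 5 of 10 arrays. RV arrays read −3.85, −3.91, −4.29 and −5.10, and septum arrays −3.74, −3.75 and −4.60. The LV arrays read −3.84, −3.81 and −1.14. LV replicate 3 stood well above the other 9 arrays, which lay between −5.10 and −3.74, and no difference was computed for this gene.

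Counted together, 2 of the 5 Irx probes that entered the test passed for RV against LV (Irx1 and Irx5, both lower in the RV), where 3.86% of all probes passed in either direction and 1.55% were lower. For RV against septum 3 of 5 passed (Irx1, Irx2 and Irx5), where 2.08% of all probes passed and 0.873% were lower. The family was chosen on that comparison and the counts hold Irx1 and Irx2, so nothing is read from them. For septum against LV 0 of 5 passed by limma, as did 0% of all probes, of which 862 had an unadjusted p under 0.05. Arrays did not overlap for 3 of 5 probes between RV and LV (19.1% of all probes), 3 of 5 between RV and septum (13.7%) and 2 of 5 between septum and LV (6.99%). RV against LV and RV against septum share the 4 RV arrays. With the replicate block, 4512 probes passed for RV against LV and 2154 for RV against septum, in place of 1167 and 628.

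**Figure D2:**
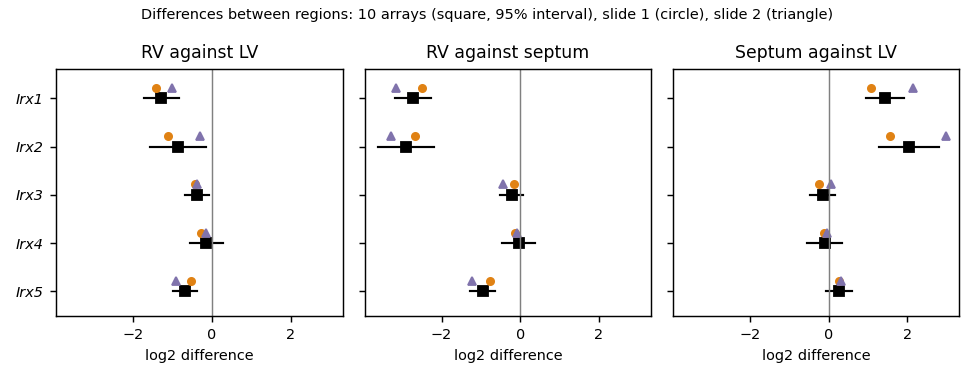
Differences between regions for the 5 Irx probes that passed the filter, in log2 units (horizontal axis). Squares and lines are the value over all 10 arrays with its 95% interval, circles are the first slide and triangles the second. Irx1 and Irx2 reach −2.73 and −2.90 for RV against septum, and Irx4 stays near 0 in all 3 panels. The intervals of Irx1 and Irx2, and all those for RV against septum, are descriptive.

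The genes whose level was most like that of an Irx gene were sought for Irx1 and Irx2, whose region means spanned at least 1 unit (that of Irx5 spanned less). Each of 14613 genes was centred on its mean over the 10 arrays, and likeness was the root mean square difference in log2 units. Irx1 and Irx2 were each other's nearest gene, at 0.37. Both had been picked for a low RV level on these same arrays, so their nearness follows in part from that choice and is given as a description. Next to both was Pvalb, the calcium buffer parvalbumin, at 0.58 from Irx1 and 0.62 from Irx2. Pvalb read −1.89, −1.78, −2.13 and −2.40 in the RV, −1.71, −1.98 and −2.09 in the LV and −0.25, −0.44 and 0.03 in the septum, so its RV and LV arrays overlapped as those of Irx2 did.

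Irx1 was then followed by Neb (nebulin of the thin filament, 0.60), Gnb3 (a G protein beta subunit, 0.62) and Bex1 (0.65). In these 3 genes LV and septum were close, with septum against LV differences of 0.35, 0.09 and −0.03, and the RV stood below both, with RV against LV differences of −1.15, −2.01 and −1.95. Irx2 was followed by Ftcd (an enzyme of histidine breakdown, 0.69), Sfrp5 (a secreted Wnt inhibitor, 0.75) and Cntn2 (a contactin that marks Purkinje cells, 0.78), in which the septum stood above the LV. For Sfrp5 this difference was 1.66. The Ftcd probe was well above background on 1 RV array, no LV array and all 3 septum arrays, so it passed the filter only through the septum, its level there was at least 1.90-fold that of the LV, and its place in the order rests in part on readings near background. The Cntn2 probe was well above background on 1 of 3 LV arrays, where the measured difference was 2.88, and the Neb probe on 2 of 4 RV arrays. Irx5 took the 30th place from Irx1 and the 26th from Irx2, Irx3 the 1316th and 2362nd, and Irx4 the 7380th and 9749th. These distances rest on 10 arrays that share 2 slides and a region structure, and when levels were centred within each slide 4 of the 5 nearest genes of each list were kept.

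**Figure D3:**
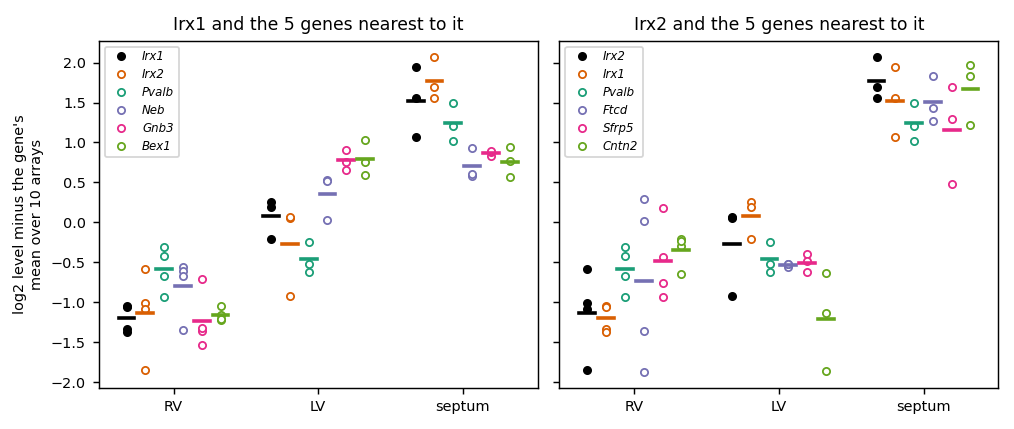
Irx1 (left) and Irx2 (right), filled black points, beside the 5 genes nearest to each, open points. The vertical axis is the log2 level of a gene centred on its average over the 10 arrays, each point is 1 array and bars are region means. Irx1, Irx2 and Pvalb are highest in the septum, and Gnb3 and Bex1 are alike in LV and septum.

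The neighbours of the clusters on the chromosome were read in RefSeq order. Between the first and last Irx gene of the clusters lie 20 other genes, none of them protein-coding. Of these, 4 had a probe and 1 passed the filter, the long non-coding RNA gene Crnde, which is the gene next to Irx5. Crnde read 0.71, 0.57, 0.39 and 0.55 in the RV, 1.14, 0.94 and 1.0 in the LV, and 1.18, 1.11 and 1.16 in the septum on its brighter probe, with all RV arrays below all others, as for Irx5. It was lower in the RV than in the LV, at −0.47 (SE 0.09, limma, adjusted p = 0.0240) and than in the septum, at −0.60 (SE 0.09, limma, adjusted p = 0.0144). Its other probe gave −0.51 (limma, adjusted p = 0.0740) and −0.66 (limma, adjusted p = 0.0428). The RV against LV call of Crnde was lost without RV replicate 2 or 4 or any LV replicate, 5 of 10 fits, and that against the septum without septum replicate 2 or 3.

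Of the 12 nearest protein-coding genes outside the clusters, 8 were tested and 0 passed in either RV comparison by limma. With the replicate block 0 of the 8 passed as well. Fto, whose introns are known to hold enhancers of Irx3, differed by −0.09 between RV and LV and by −0.07 between RV and septum. On its dimmer probe the values were 0.26 (limma, adjusted p = 0.249) and −0.03. Over the wider list of 21 neighbours, 16 were tested and Crnde was the only gene that passed, lower in the RV in both comparisons, with and without the replicate block. The median difference of that list was −0.12 for RV against LV and −0.06 for RV against septum, beside −0.05 and −0.04 over all 14641 genes tested, of which 460 were higher and 269 lower in the RV than in the LV, and 246 and 149 than in the septum.

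**Figure D4:**
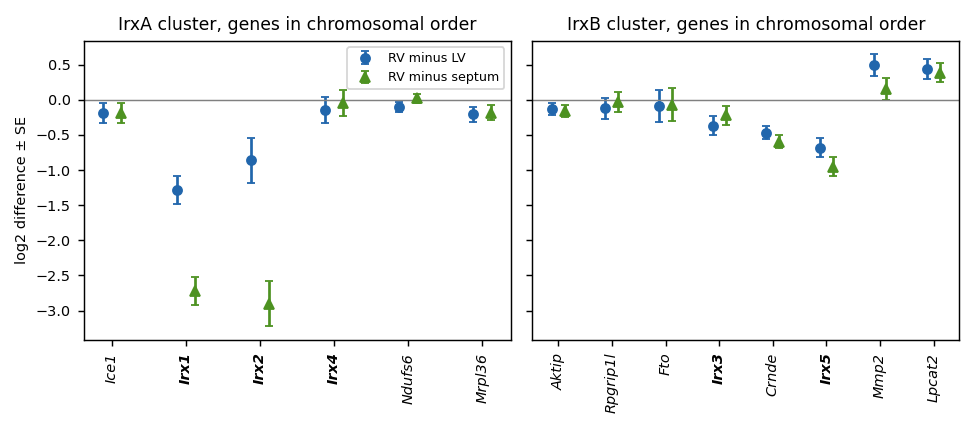
Differences of the RV from the LV (circles) and from the septum (triangles), in log2 units ± SE, for the tested genes of the IrxA (left) and IrxB (right) clusters and their protein-coding neighbours. Genes stand in chromosomal order without scale, and Irx genes are in bold. Irx1, Irx2 and Irx5 lie well below 0 and the protein-coding neighbours lie between −0.21 and 0.49.

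Genes with a known link to Iroquois factors in the heart were read from a list of 9, of which 7 were tested. The median difference of the 7 was −0.32 for RV against LV, −0.28 for RV against septum and −0.13 for septum against LV. Over all 14641 genes tested the medians were −0.05, −0.04 and −0.02. Of those genes 460 passed as higher and 269 as lower in the RV than in the LV, and 246 and 149 than in the septum. Kcnd2, which encodes the transient outward potassium channel subunit Kv4.2 and is known as a gene repressed by Irx5, was the 1 that passed. It read 2.05, 1.84, 2.07 and 1.99 in the RV, 1.48, 1.34 and 1.38 in the LV and 0.73, 0.72 and 0.57 in the septum. No arrays of any pair of regions overlapped, and the order of the regions was RV, LV, septum. The means of Irx5 had the reverse order, as did those of Irx1, Irx2 and Crnde, and LV and septum arrays of Irx5 overlapped. Whether Irx5 acts on Kcnd2 in these samples was not tested. Kcnd2 was higher in the RV than in the LV by 0.59 (SE 0.08, limma, adjusted p = 0.00664) and than in the septum by 1.32 (SE 0.08, limma, adjusted p = 0.000282). These calls held without any 1 array. The septum was below the LV by a difference of −0.73 that did not pass (limma, adjusted p = 0.128).

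The other 6 tested genes of that list did not pass. The gap junction genes were Gja5 (connexin 40 of the fast conduction system), with septum against LV at 0.57 and RV against LV at 0.13, and Gja1 (connexin 43), with −0.26 and −0.06. For Gja1, 1 of 3 probes, not the brightest, was higher in the RV than in the septum (0.38, limma, adjusted p = 0.0409). Kcnip2, the accessory subunit of Kv4 channels, was at −0.32 in the RV against the LV. Nppa (atrial natriuretic peptide) was at −2.21 against the LV and −2.32 against the septum (limma, adjusted p = 0.0504 and 0.0605), with a wide RV spread of 1.07. Myh7 was at −0.83 and −1.87. With the replicate block Nppa passed in both comparisons and Myh7 against the septum, all lower in the RV. Over all 14641 genes the block gave 1062 higher and 1552 lower in the RV than in the LV, and 612 and 661 than in the septum. Bmp10 and Hand1 were too dim to be tested.

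**Figure D5:**
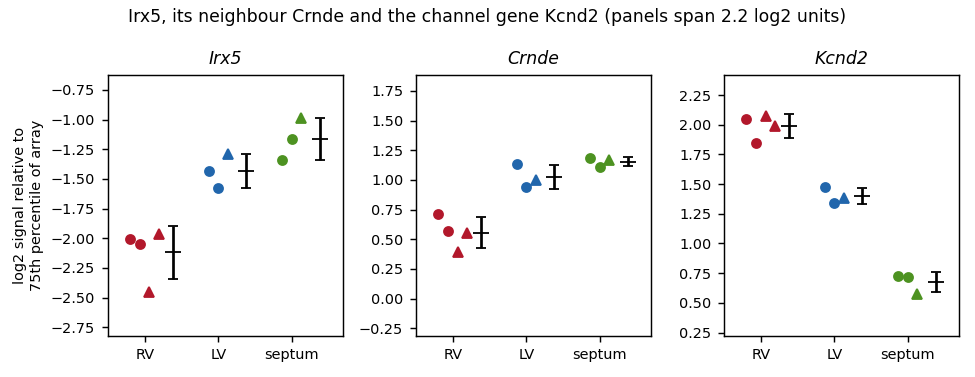
Levels of Irx5, Crnde (brighter probe) and Kcnd2 by region, as log2 signal relative to the 75th percentile of each array. Points are arrays (circles slide 1, triangles slide 2) and bars are mean ± SD. Irx5 and Crnde are lowest in the RV, and Kcnd2 is highest there and lowest in the septum.

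The conduction system list, read because of Irx3 and Cntn2, had all 21 genes tested. For RV against LV 5 were higher and 0 lower in the RV, with a median of 0.11, beside 460 higher and 269 lower and a median of −0.05 over all 14641 genes. These were Sema3a and Slit2 (guidance cues), Id2 and Etv1 (transcription regulators) and Scn10a (a sodium channel, 1 of 2 probes). Id2 was higher by 1.22 (limma, adjusted p = 0.000585). Sema3a was well above background on all 4 RV arrays, no LV array and 1 septum array, which gives at least 1.80-fold against the LV. It passed the filter only through the RV, so its 2 calls are not read as support for the counts. For RV against septum 3 were higher (Id2, Sema3a and Slit2) and 2 lower (Cntn2 and Cpne5), with a median of −0.11, beside 246 higher and 149 lower and a median of −0.04 over all genes. Cntn2 was also named as 1 of the genes nearest to Irx2, so its RV against septum difference of −2.02 (SE 0.28) is given as a description. Cpne5, a Purkinje marker, was at −1.18 (limma, adjusted p = 0.0422), a call lost in all 10 fits without 1 array and with the replicate block (−1.09, limma, adjusted p = 0.0597). For septum against LV 0 of 21 passed by limma. There 14 of the 21 were higher in the septum, with a median of 0.23. Over all 14641 genes 6126 were higher in the septum, with a median of −0.02. With the replicate block the list had 5 higher and 2 lower for RV against LV and 3 and 3 for RV against septum, beside 1062 higher and 1552 lower, and 612 and 661, over all genes. The median of the list had the sign of Irx1 and Irx2 for RV against septum and for septum against LV. For RV against LV it had the opposite sign. Leaving out 1 array ended the RV against LV calls of Etv1 (LV replicate 2 or 3 or RV replicate 4), Scn10a (the same arrays or RV replicate 2) and Slit2 (any array but RV replicate 3), and the RV against septum calls of Slit2 and Sema3a (septum replicate 2).

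Among cardiac transcription factors outside the family, 24 of 27 were tested. Meis2, a TALE factor like the Irx proteins, was higher in the RV than in the LV (0.51, limma, adjusted p = 0.0422). Leaving out 1 array ended the call of Meis2 in 8 of 10 fits (any array but RV replicate 2 or septum replicate 3). The medians of the list were −0.08 against the LV and −0.01 against the septum. With the replicate block 2 genes of the list were higher and 7 lower for RV against LV, and 1 and 4 for RV against septum. Tbx5 and Nkx2-5 differed by at most 0.21 from the RV in either comparison (Nkx2-5 passed against the LV with the block), and Hey2 was too dim to be tested. Of the repolarization list, 14 of 15 genes were tested, with Kcnd2 higher and the background potassium channel gene Kcnk3 lower in the RV (−0.72 against the LV and −0.58 against the septum). The first Kcnk3 call was lost without LV replicate 2, and the second without any array but septum replicate 1. The medians of this list were −0.02 and −0.05. With the replicate block 2 were higher and 4 lower for RV against LV, and 1 and 2 for RV against septum.

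Markers of other cell types moved with the regions. Over all 14641 genes tested, 460 were higher and 269 lower in the RV than in the LV, and 246 and 149 than in the septum. With the replicate block these were 1062 and 1552, and 612 and 661. Of 7 mesothelium markers, 6 were higher in the RV than in the septum and 0 than in the LV (5 with the replicate block), and their summed level ran from 8.09 to 23.1 in the RV, 4.62 to 7.54 in the LV and 1.46 to 3.35 in the septum, in units of the 75th percentile. Adipocyte markers were higher in the RV for 4 of 7 against the LV and 2 of 7 against the septum (1 with the block), while the sum, carried by Fabp4 of the endothelium, ran from 124 to 152 in the RV, 144 to 174 in the LV and 138 to 171 in the septum. All these adipocyte counts hold Plin1, well above background on 4 RV arrays, 0 LV arrays and 1 septum array. The mesothelium calls hold Lrrn4, well above background on 4 RV, 2 LV and 1 septum arrays. Both passed the filter only through the RV, so their calls are not read as support for the counts. Fibroblast markers were higher in the RV for 3 of 7 and 1 of 7, with sums of 382 to 441, 246 to 314 and 303 to 360. The atrial sum was 29.7 to 111 in the RV, 106 to 154 in the LV and 114 to 586 in the septum, and 586 was septum replicate 1, which had the lowest Irx1 and Irx2 of its region. Cartilage and valve markers summed to 4.53 to 23.9 in the RV, 1.41 to 3.17 in the LV and 5.63 to 17.1 in the septum. Macrophage markers summed to 35.9 to 40.4 in the RV, above all arrays of the LV (27.9 to 32.6) and septum (24.7 to 34.0), and 5 of 5 were higher in the RV in both comparisons without passing the test (1 passed against the LV with the block). Endothelium and blood markers did not pass in any comparison (3 of 6 endothelium markers passed for RV against LV with the block, 1 higher and 2 lower). None of 8 cardiomyocyte markers passed in any comparison by limma (with the block 2 were lower in the RV than in the LV and 1 than in the septum), and their sums overlapped (3799 to 4055, 3901 to 4455 and 3591 to 4360). The part of these cell types in the Irx differences was not tested.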

How the data were processed

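The authors hybridised RNA of 10 samples to SurePrint G3 Mouse 8x60K arrays and deposited Agilent Feature Extraction output (version 11.5.1.1), in which processed intensity values are background-corrected and not scaled between arrays, and a GeneSpring table of log2 values with the 75th percentile at 0. Groups came from the sample titles. Each array's log2 intensity was set to its 75th percentile here, after control and outlier spots were left out and spots of a probe were averaged. The authors' log2 table differed from this by at most 0.0072 after a constant was removed. Probes were kept where well above background on all arrays of at least 1 region (30234 of 56605, 53.4%), and 53.7% to 64.0% of spots were well above background on an array, with 0 saturated. limma 3.58.1 in R 4.3.3 was fitted with 1 mean per region over all 10 arrays, and p-values were adjusted by Benjamini-Hochberg over all tested probes, with a call at an adjusted p under 0.05. The small number of arrays limits the precision.

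Probes were named through their accession in RefSeq (GRCm38.p6), and 58.3% had a symbol. For a gene with several probes the brightest was used. The members and gene lists were chosen with earlier results of these data known. Genes named were all Irx genes, every called gene of the lists, up to 4 more per list with a stated link to Irx factors, and the 5 genes nearest to an Irx gene whose region means span at least 1 log2 unit. Several genes stand in more than 1 list, and some list genes are not reported here. Deviations from the region means correlated between arrays of the same replicate number in all 9 pairs (0.39 to 0.67). The 24 pairs of different number ran from −0.59 to 0.62, and all those across slides were negative. On the first slide pairs of different number were positive as well (0.12 to 0.34). On the second, RV replicate 4 correlated with LV and septum replicate 3 at 0.61 and 0.62, above RV replicate 3 (0.44 and 0.46). Same-numbered arrays always share a slide, so a pairing by number cannot be told apart from the slide. The number from the titles was used as a block in alternative fits only. The values given are those without this block, as the methods name none, and blocked values stand beside a result where they change a call or a count of calls by over 1.5 times. The design text says that individuals differed between experiments, and what a number marks is not given in the sources used here. Normexp correction used the median foreground signal. Alternatives were other scalings, filters, blocks, slides, arrays left out and the methods' analysis of variance with Tukey comparisons.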

Additional observations from a re-analysis of the deposited data

Results flagged for a closer look

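The level of Irx5 on RV replicate 3 stood apart from the other RV arrays, at −2.45 against −2.05 to −1.97. Its gap to the nearest array was 0.836 of the range of the 4 RV arrays, just above the 95% critical value of Dixon's test for groups of 4, which chance passes in about 1 in 20 groups. This ratio was computed for the RV arrays of all 6 Irx genes, and the next largest was 0.653, of Irx6. With 6 genes looked at, at least 1 passes by chance more often than that. The same array had the lowest Irx2 and Irx1 levels of the RV (−3.76 and −1.06). Without RV replicate 3 the Irx5 difference was −0.57 for RV against LV and −0.84 for RV against septum.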

How the results depend on the processing

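Irx1, Irx2 and Irx5 kept their direction in every comparison and setting tried (Irx5 being higher in the septum than in the LV by 0.18 to 0.36). The call of Irx5 for RV against LV was lost with median scaling (−0.70, adjusted p = 0.0574), without a filter on dim probes (−0.68, 0.126), on slide 1 (−0.52, 0.061) and slide 2 (−0.92, 0.172) alone and with only the regions compared (−0.68, 0.0572), and arrays left out gave −0.75 to −0.57. Irx3 for RV against LV was called with slide (−0.42), replicate number (−0.43) and random replicate number (−0.40) as a block. The replicate block changed no other call of an Irx gene. On slide 2 alone, where LV and septum have 1 array each that is assumed to vary like the rest, Irx1 was −3.16 and Irx2 −3.29 for RV against septum, Irx2 −0.29 for RV against LV, Irx1 2.15 and Irx2 3.0 for septum against LV, Irx3 −0.44 and Irx5 −1.22 for RV against septum, and Irx3 0.052 for septum against LV, turned from −0.15. On slide 1 alone Irx1 was 1.09 for septum against LV. With normexp, Irx2 was −1.99 for RV against septum and 1.53 for septum against LV, and Irx5 was −0.71 for RV against septum. Irx4 ranged with arrays left out from −0.17 to 0.11 for RV against septum and −0.25 to 0.0275 for septum against LV. The Irx genes called for RV against LV were 1 with median scaling or only the regions compared, 0 without a filter or on slide 2, 4 with the random block and 0 to 2 with arrays left out. For septum against LV 2 were called with the random block. Irx1 and Irx2, chosen on these arrays, were among the genes counted, so nothing is read from these counts. Of all probes, those called for RV against LV were 684 with median scaling, 269 without a filter, 331 on slide 2, 5331 with slide and 4512 with replicate block, 5795 with the random block, 633 with only the regions compared, 4002 by analysis of variance unadjusted and 775 adjusted, and 390 to 980 with arrays left out. For RV against septum they were 112 without a filter, 171 on slide 2, 2643 and 2154 with slide and replicate block, 3186 with the random block, 263 with only the regions compared, 2756 by analysis of variance unadjusted, and 118 to 542 with arrays left out. For septum against LV they were 2 with quantile scaling, 3 with normexp, 14 with the slide block, 1 on slide 2, 69 with the random block, 435 unadjusted and 167 adjusted by analysis of variance, 0 to 3 with arrays left out, and 862 by limma at an unadjusted p under 0.05. Higher calls were 59.7% of those for RV against LV and 75.9% with the 75th percentile of detected probes, and 58% and, with median scaling, 73% for RV against septum. With slide, replicate and random block they were 41.1%, 41.8% and 42.5% for RV against LV and 46%, 47.1% and 46.4% for RV against septum. The cause of these changes was not tested. Each Irx gene had 1 probe, so no second probe could be tried.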
